A study of Mus musculus with 4 samples.

Results

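The genes described here are 10 transporters of the blood-retina barrier, the seal that vessel-lining endothelial cells form between blood and retina. They carry organic anions (Slco1c1, Slco1a4, Slco2b1 and Slc22a8), glucose (Slc2a1), lactate (Slc16a1) and iron (Tfrc), or pump compounds back into the blood (Abcb1a, Abcg2 and Abcc4). They were chosen by name, with earlier results of these data known, and all 10 were found among the 54446 genes of the deposited table. The libraries were made from endothelial cells sorted by flow cytometry from retinas of C57BL/6 mice at postnatal day 16, with 100 cells per library. There were 2 libraries of genotype control and 2 from mice titled Zeb1-CKO, whose genotype field reads Zeb1 knockdown. Zeb1 encodes a zinc-finger repressor of transcription. The labels name neither the promoter that drives the knockout nor the alleles of the control mice. They do not say whether each library is a separate animal, and a p-value here reflects the spread of these 4 libraries alone, which may be technical.

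Endothelial cells of the retina and brain are joined by tight junctions, so solutes cross mainly through carriers in the cell membrane. GLUT1, the product of Slc2a1, brings in glucose, and MCT1, the product of Slc16a1, moves lactate and other monocarboxylates together with protons. Organic anion carriers of the SLCO family and OAT3 (Slc22a8) move hormones, conjugates and drugs, while ATP-driven pumps return many lipid-soluble drugs to the blood.

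Values are FPKM, fragments per kilobase of transcript scaled to library size, which can be compared between genes within a library. From the steps between low values, the libraries held 11.3 to 22.1 M fragments if a step is 1 fragment, with control 2 the shallowest. These depths are approximate and their order is uncertain. Both control 2 and Zeb1-CKO 2 also showed finer ladders of steps, which would make them deeper, and the coarsest was taken. Of the low values, 11.2% to 13.4% lay within 0.02 of a whole step, where chance gives 4% for a step set beforehand. Each step was chosen on the low values themselves, so this is no separate support for the depths. A step is then worth 0.0226 to 0.0442 FPKM for a transcript of 2000 bases, far below every transporter value here. Zeb1 was at 10.7 and 11.1 FPKM in the control pair and 8.66 and 7.07 in the Zeb1-CKO pair (limma's adjusted p of 0.235). Values per gene do not separate a deleted exon from the rest of the transcript. All 13 endothelial markers were present, with sums of 4024 and 4794 FPKM in the control pair and 4562 and 4955 in the Zeb1-CKO pair. Cldn5 made up most of these sums, at 2692 and 3428 FPKM in the control pair and 3133 and 3500 in the Zeb1-CKO pair. Of the 13, 3 were lower and 5 higher in both Zeb1-CKO libraries than in both controls. Red cell markers summed to 2730 and 3299 FPKM in the control pair and 746 and 1410 in the Zeb1-CKO pair, with 5 of the 7 markers lower in both Zeb1-CKO libraries than in both controls. Pericyte and smooth muscle markers summed to 2111 and 1733 FPKM against 1476 and 1571 FPKM, with 8 of 10 lower in the same way. Microglial markers summed to 26.3 and 81.3 FPKM in the control pair and 22.8 and 10.7 in the Zeb1-CKO pair, so control 2 stood highest. Of the 10 microglial markers, 5 were lower and 1 higher in both Zeb1-CKO libraries than in both controls. Photoreceptor marker sums stood lowest in control 2, at 10.01 FPKM against 47.1 to 89.7 FPKM elsewhere, with 0 of 8 lower and 0 higher in this way. Of 11 markers of the retinal pigment epithelium, which also carries many of these transporters, 9 were below 1 FPKM in every library. Rpe65, Tyr, Tyrp1, Slc45a2 and Lrat were listed at 0 in at least 1 library. The 11 summed to 2.62 and 2.59 FPKM in the control pair and 3.15 and 3.63 in the Zeb1-CKO pair. Both Zeb1-CKO libraries lay below both controls for 2 of the 11 and above for 1. The 2 fitted markers were Best1, at 1.18 and 1.07 FPKM against 1.08 and 1.48, and Pmel, at 0.494 and 0.514 against 1.42 and 1.62. Markers of Mueller glia and astrocytes summed to 346 and 378 FPKM in the control pair and 384 and 434 in the Zeb1-CKO pair, with 4 of 8 higher in both Zeb1-CKO libraries and 1 lower. Of all fitted genes, 22.3% were lower and 27.1% higher in both Zeb1-CKO libraries than in both controls. In bulk samples, fewer cells of a type and less RNA per cell cannot be told apart.

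The transporters were abundant in both genotypes. Slc2a1 led in every library, at 808 and 892 FPKM in the control pair and 729 and 713 in the Zeb1-CKO pair, and made up 60.5% to 65.6% of the summed FPKM of the 10 genes. Slc16a1 was second in every library. In controls, the next in order were Slc22a8 at 74.6 ± 3.51 FPKM (SD, n = 2), Slco2b1 at 67.3 ± 0.326, Abcg2 at 57.2 ± 5.67, Tfrc at 53.2 ± 1.75, Slco1c1 at 48.9 ± 0.962, Abcb1a at 45.7 ± 2.63, Slco1a4 at 30.6 ± 2.65 and Abcc4 at 13.0 ± 1.598 FPKM. Of these neighbours, Abcg2 and Tfrc overlapped between libraries. By mean in Zeb1-CKO cells, Slco2b1 and Abcg2 came next after Slc16a1, then Slco1a4 and Abcb1a. Slc22a8 moved from rank 3 to rank 7 by mean, at 29.3 ± 0.626 FPKM. Of neighbours in this order, Slco1a4 overlapped with Abcb1a, Abcb1a with Slc22a8, and Slco1c1 with Tfrc. Genes further apart were not all separate either. In Zeb1-CKO 1, Tfrc at 30.6 FPKM lay above Slc22a8 at 29.7 FPKM.

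**Figure D1:**
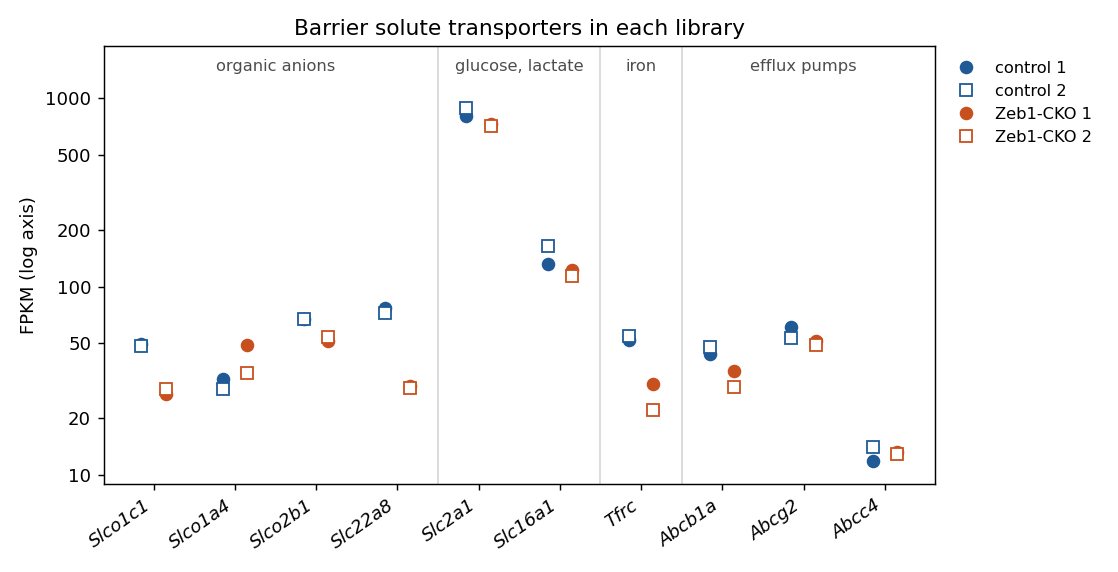
FPKM of the 10 transporters on a log axis, with circles for replicate 1 and squares for replicate 2, controls in blue and Zeb1-CKO libraries in orange. Slc22a8, Slco1c1 and Tfrc show the widest gaps between the genotypes, and Slco1a4 is the gene whose Zeb1-CKO libraries both lie above both controls.

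Of the 10 transporters, 2 fell in Zeb1-CKO cells, 0 rose and 8 did not pass the threshold, which was a Benjamini-Hochberg adjusted p under 0.05 from limma, fitted to log2(FPKM + 1) of 13651 genes. Of all fitted genes, 0.901% were called lower, 2.23% higher and 3.13% in either direction. At an unadjusted p under 0.05, 5 transporters were lower and 0 higher. Of the 13651 fitted genes, 1004 were lower and 1434 higher at this level, 17.9% in either direction. All 10 passed the filter of a mean of at least 1 FPKM. Their median log2 fold change was -0.33, beside 0.02 over all fitted genes. In 8 transporters both Zeb1-CKO libraries lay below both controls, in 1 both lay above, and in 1 the genotypes overlapped; of all fitted genes, 22.3% lay below and 27.1% above in this way, 49.4% together. An exact two-sided permutation test of 2 against 2 libraries cannot go below 0.333, so it can call no single value.

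**Figure D2:**
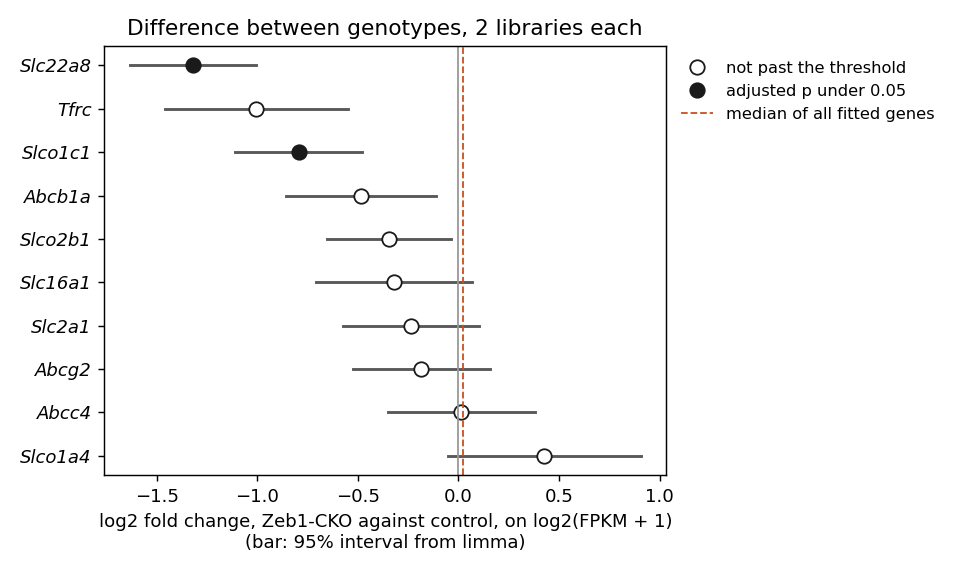
Log2 fold change of each transporter, Zeb1-CKO against control, on the log2(FPKM + 1) scale, with the 95% interval from limma as a bar and the median of all fitted genes as a dashed line. Slc22a8 (-1.32) and Slco1c1 (-0.80) are filled because they passed the threshold, and Tfrc (-1.01) lies between them without passing.

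Among the organic anion carriers, Slc22a8 and Slco1c1 fell, Slco2b1 was lower without passing, and Slco1a4 had higher values. Slc22a8 (ENSMUSG00000063796.8) encodes OAT3, an exchanger that takes up organic anions such as drug conjugates and neurotransmitter metabolites. It was at 77.1 and 72.1 FPKM in the control pair and 29.7 and 28.8 in the Zeb1-CKO pair. Replicates lay close together and the genotypes did not overlap. Exon bases shared with other genes were not checked for Slc22a8, because this version of its identifier is not in GENCODE M21. Slc22a8 fell, with mean FPKM 2.55-fold lower and a fitted log2 fold change, on log2(FPKM + 1), of -1.32 (SE 0.13, 95% interval -1.63 to -1.01), with limma's adjusted p at 0.00889. The call ended without Zeb1-CKO replicate 1 (adjusted p = 0.0793) or replicate 2 (adjusted p = 0.0688), while the log2 fold change stayed at -1.34 and -1.30.

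Slco1c1 encodes OATP1C1, a high-affinity carrier of the thyroid hormone thyroxine at the blood-brain barrier. Its levels were 49.6 and 48.2 FPKM in the control pair and 26.8 and 28.7 in the Zeb1-CKO pair, again with no overlap. Slco1c1 fell, with mean FPKM 1.76-fold lower and a fitted log2 fold change of -0.80 (SE 0.13, 95% interval -1.11 to -0.48), with limma's adjusted p at 0.0378. This call was lost when any 1 library was left out (adjusted p of 0.101 to 0.184), and also without a filter on low values (0.140) or without the intensity trend (0.0644). Slco2b1 (ENSMUSG00000030737.17, chr7:99657804-99711340), a broad-specificity carrier of steroid sulfates, was at 67.1 and 67.5 FPKM in the control pair and 51.5 and 54.1 in the Zeb1-CKO pair. Its log2 fold change was -0.34 (95% interval -0.65 to -0.04) with limma's adjusted p at 0.233. Of its 5958 exon bases, 471 are shared with Gm15635 on the other strand, at 1.11 to 2.48 FPKM, and reads of the pair cannot be told apart without strand.

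Slco1a4 encodes OATP1A4, a carrier of bile acids, steroid conjugates and many drugs. It was at 32.4 and 28.7 FPKM in the control pair and 48.9 and 34.9 in the Zeb1-CKO pair. Both Zeb1-CKO libraries lay above both controls, but they differed from each other by 1.40 times, and the difference did not pass (log2 fold change of 0.43, 95% interval -0.05 to 0.91, limma's adjusted p at 0.329). The log2 fold change was 0.19 without Zeb1-CKO replicate 1 and 0.66 without replicate 2. The level of Slco1a4 was 0.654 and 0.595 of that of Slco1c1 in controls, and 1.82 and 1.22 times it in Zeb1-CKO libraries. Slco1c1 was thus the more abundant of this pair in both controls, and Slco1a4 in both Zeb1-CKO libraries. Summed over the 4 organic anion carriers, the level was 221 ± 6.80 FPKM in control and 152 ± 7.35 in Zeb1-CKO cells (SD, n = 2 each).

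Slco1c1 and Slco1a4 lie in 1 cluster of SLCO genes. In mm10, Slco1c1 (ENSMUSG00000030235.17) spans chr6:141524368-141570177 on the plus strand and Slco1a4 (ENSMUSG00000030237.14) spans chr6:141805440-141856199 on the minus strand, with 235263 bases between them. The protein-coding genes between them, Slco1b2 and Gm5724, were at 0.136 FPKM or less in every library. On the far side of Slco1a4, its close relatives Slco1a1, Slco1a6 and Slco1a5 reached at most 0.682 FPKM. The closest transcript of another gene to Slco1a4 was that of Slco1a5, at 89.1% identity over 2150 aligned bases, and no near-identical copy was found for any organic anion carrier. Pde3a, a phosphodiesterase gene before Slco1c1, was at 4.37 and 4.92 FPKM in the control pair and 4.70 and 4.61 in the Zeb1-CKO pair.

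**Figure D3:**
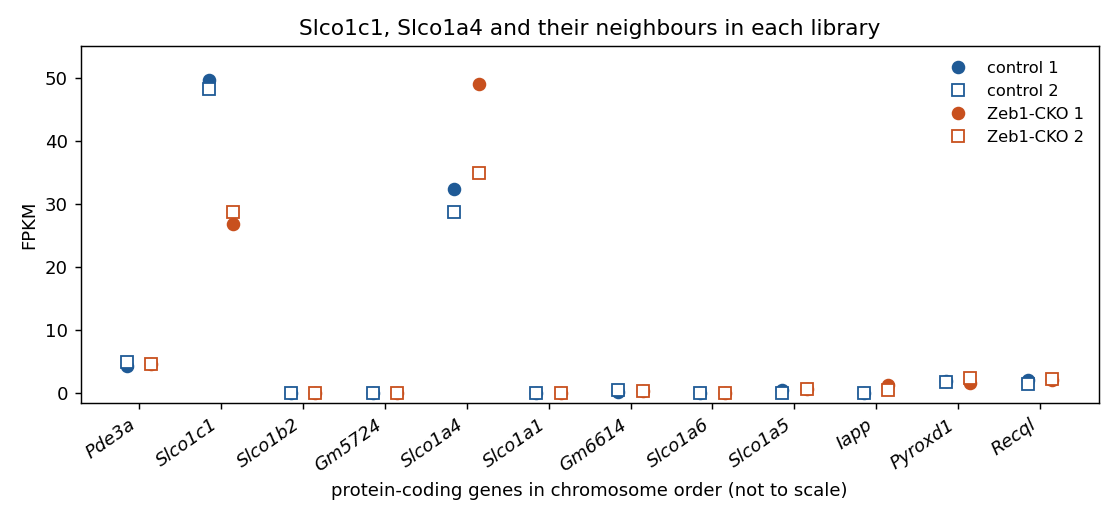
FPKM in each library of the protein-coding genes within 500000 bases of Slco1c1 and Slco1a4, in chromosome order and not to scale, with circles for replicate 1 and squares for replicate 2. Of the SLCO genes shown, Slco1c1 and Slco1a4 are well above 1 FPKM, with Zeb1-CKO libraries (orange) lower for the first and higher for the second.

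The promoter windows of Slc22a8, Slco1c1, Tfrc and Slco1a4 are shown because the first 3 had the largest differences and Slco1a4, in the same gene cluster as Slco1c1, had higher values. They are from RefSeq (GRCm38.p6), run 5′ to 3′ from 250 bases before the start to 50 bases after it, and carry matches to 3 motifs in capitals. The motifs, searched on both strands, were CACCTG, the E-box bound by ZEB1, CTTTGAT or CTTTGTT, bound by TCF/LEF factors, and ACGTG, the core of hypoxia-inducible factor sites.
Slc22a8 promoter window, chr19:8592932-8593231, plus strand: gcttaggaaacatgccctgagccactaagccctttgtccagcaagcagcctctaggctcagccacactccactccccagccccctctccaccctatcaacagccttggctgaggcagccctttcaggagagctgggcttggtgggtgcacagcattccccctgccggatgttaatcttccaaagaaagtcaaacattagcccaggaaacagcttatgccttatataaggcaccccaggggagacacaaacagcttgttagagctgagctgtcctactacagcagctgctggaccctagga
Slco1c1 promoter window, chr6:141524104-141524403, plus strand: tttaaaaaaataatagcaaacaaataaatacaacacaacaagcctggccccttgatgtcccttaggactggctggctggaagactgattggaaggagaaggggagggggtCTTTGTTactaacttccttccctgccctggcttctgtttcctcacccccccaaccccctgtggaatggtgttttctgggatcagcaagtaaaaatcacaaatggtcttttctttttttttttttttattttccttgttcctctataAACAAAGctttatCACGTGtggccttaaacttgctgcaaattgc
Tfrc promoter window, chr16:32608646-32608945, plus strand: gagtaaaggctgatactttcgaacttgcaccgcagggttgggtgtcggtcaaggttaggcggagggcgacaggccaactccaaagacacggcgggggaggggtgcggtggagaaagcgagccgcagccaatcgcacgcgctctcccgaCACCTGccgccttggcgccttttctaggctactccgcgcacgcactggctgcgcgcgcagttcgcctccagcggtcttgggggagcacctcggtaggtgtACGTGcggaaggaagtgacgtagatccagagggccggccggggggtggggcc
Slco1a4 promoter window, chr6:141856171-141856470, minus strand: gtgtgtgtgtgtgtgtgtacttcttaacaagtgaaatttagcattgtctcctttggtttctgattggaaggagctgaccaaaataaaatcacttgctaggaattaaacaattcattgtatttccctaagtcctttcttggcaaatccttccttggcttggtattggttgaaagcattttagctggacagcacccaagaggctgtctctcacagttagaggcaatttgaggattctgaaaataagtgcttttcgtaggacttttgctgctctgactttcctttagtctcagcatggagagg

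The Slco1c1 window holds CTTTGTT on each strand and a CACGTG, which matches ACGTG on both strands. Tfrc holds 1 CACCTG and 1 ACGTG. The windows of Slc22a8 and Slco1a4 hold none of these letters, which is no statement about the factors. The RefSeq start of Slc22a8 lies 1928 bases from the start in the deposited table, at chr19 position 8591254, so its window lies away from that start; for Abcb1a the gap was 92986 bases. Taking for each gene the window nearest the deposited start, CACCTG was in 2 of 10 (Abcc4 and Tfrc), TCF/LEF letters in 1 of 10 (Slco1c1) and ACGTG in 5 of 10 (Slco1c1, Slc2a1, Slc16a1, Abcc4 and Tfrc). Of 32544 RefSeq windows of 300 bases, 20.3%, 9.33% and 19.7% held them. A match is a description of letters, not a binding site.

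Slc2a1 and Slc16a1, the glucose and lactate carriers of the set, were slightly lower in Zeb1-CKO cells, without passing the threshold. Slc2a1 (ENSMUSG00000028645.11, chr4:119108711-119137983) was at 850 ± 59.4 FPKM in control and 721 ± 11.5 in Zeb1-CKO cells (SD, n = 2 each). Both Zeb1-CKO libraries were below both controls, with a log2 fold change of -0.23 (95% interval -0.57 to 0.10, limma's adjusted p at 0.440). Gm12868 on the other strand shares 105 of its 3506 exon bases. With quantile normalization the log2 fold change of Slc2a1 was -0.04. Slc16a1 (ENSMUSG00000032902.1, chr3:104638668-104658462) was at 132 and 164 FPKM in the control pair and 122 and 113 in the Zeb1-CKO pair. Both Zeb1-CKO libraries were below both controls, but the controls lay further apart than the genotype means, and the log2 fold change of -0.32 (95% interval -0.71 to 0.07) did not pass, with limma's adjusted p at 0.3595. It was -0.16 without control replicate 2, the highest library. Relatives outside the set, named after their values were seen, lay in both directions. Slc2a3, the glucose carrier GLUT3, was at 2.95 and 3.34 FPKM against 4.27 and 5.02 FPKM (log2 fold change of 0.45, limma's adjusted p at 0.239). Slc16a4 was at 13.8 and 13.0 FPKM against 14.5 and 15.2 FPKM (adjusted p at 0.650), whereas Slc16a9 was at 9.29 and 12.4 FPKM against 8.67 and 8.34 FPKM (adjusted p at 0.433).

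Bsg encodes basigin, the chaperone that brings MCT1 to the cell surface. It was at 1817 and 1556 FPKM in the control pair and 856 and 967 in the Zeb1-CKO pair, with no overlap. Its log2 fold change of -0.89 (SE 0.16) narrowly missed the threshold, with limma's adjusted p at 0.0510. Bsg passed in 6 of 17 alternatives. These include the threshold of 0.1, which it passes by definition, and crossed replicate pairs, which were added later. Its log2 fold change was -0.46 with quantile normalization (adjusted p = 0.107). Basigin is also made by red cell precursors, and the red cell marker sums above were lower in the same libraries; their part in this value was not tested.

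Tfrc (ENSMUSG00000022797.16, chr16:32608920-32632794) encodes the transferrin receptor, which takes up iron-loaded transferrin from blood. It was at 51.9 and 54.4 FPKM in the control pair and 30.6 and 22.1 in the Zeb1-CKO pair. Both Zeb1-CKO libraries lay well below both controls but differed from each other by 1.39 times. The log2 fold change of -1.01 (SE 0.18, 95% interval -1.46 to -0.55) did not pass, with limma's adjusted p at 0.0534. Immature red cells carry much transferrin receptor, and red cell genes were lower beside it. Hba-a1, an alpha-globin gene, was at 1229 and 1213 FPKM in the control pair and 270 and 584 in the Zeb1-CKO pair (limma's adjusted p at 0.0809). Hbb-bs, a beta-globin gene, was at 894 and 1235 FPKM against 330 and 512 FPKM (adjusted p at 0.0625). Both share near-identical copies, Hba-a2 and Hbb-bt, so their single values are uncertain. Of the Zeb1-CKO libraries, replicate 1 had the lower red cell sum and the higher Tfrc. The part of red cell RNA in the Tfrc value was not tested.

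The list of other iron genes had 15 of 17 members fitted, of which 0 were called by limma in either direction. At an unadjusted p under 0.05, 2 were higher and 2 lower, beside 17.9% of all fitted genes in either direction. Fth1, the heavy chain of the iron-storage protein ferritin, was at 1842 and 1704 FPKM in the control pair and 1150 and 1221 in the Zeb1-CKO pair (log2 fold change of -0.58, limma's adjusted p at 0.104); 1 pseudogene below the filter, Gm6977, is near-identical to it. Ftl1, the light chain, was at 774 ± 127 and 764 ± 117 FPKM (SD, n = 2 each; adjusted p at 0.970), and is uncertain because 3 fitted pseudogenes are near-identical to it. Slc40a1, the iron exporter ferroportin, and Trf, which encodes transferrin, are named after their values were seen. Slc40a1 was at 38.7 and 35.5 FPKM in the control pair and 55.9 and 57.8 in the Zeb1-CKO pair (adjusted p at 0.0768). Trf was at 73.3 and 98.3 FPKM against 135 and 161 FPKM (adjusted p at 0.101). Glia also make transferrin, and the part of the glial marker sums, which were higher in the same libraries, was not tested. Tfrc and Fth1 were thus below both controls in each Zeb1-CKO library, and Slc40a1 and Trf above both, with none of the 4 past the threshold. Of the 15 fitted genes of the list, 5 lay below both controls in this way, 3 above, and 7 overlapped. Their median log2 fold change was 0.05. Of all fitted genes, 22.3% lay below and 27.1% above.

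**Figure D4:**
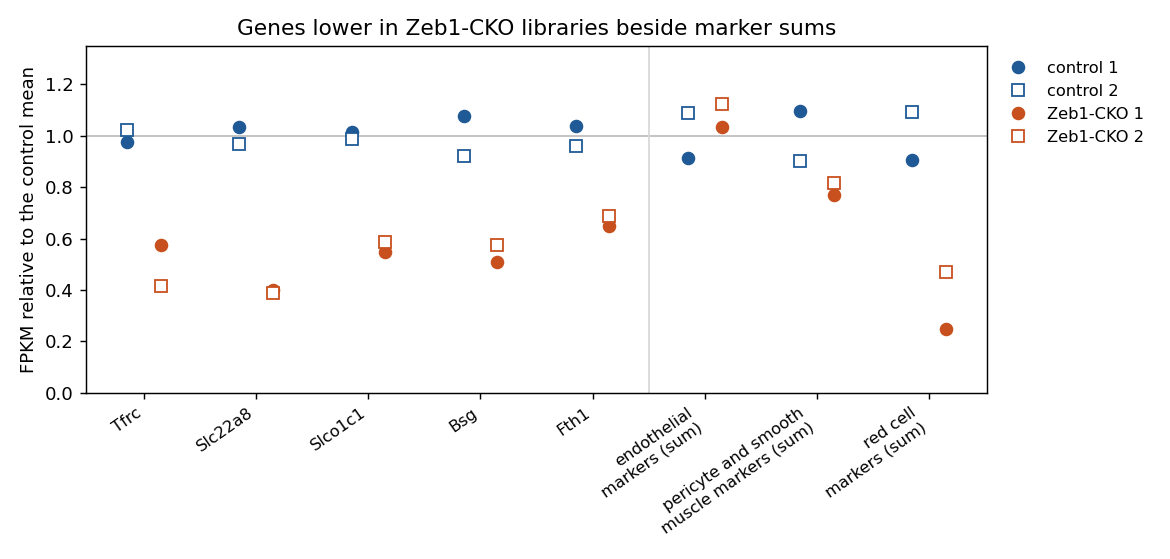
Values in each library divided by the control mean (y axis, from 0), for 3 transporters, Bsg, Fth1 and 3 sums of marker genes, with circles for replicate 1 and squares for replicate 2. Endothelial marker sums, which are mostly Cldn5, overlap between the genotypes. Red cell sums (746 and 1410 FPKM) and pericyte sums (1476 and 1571 FPKM) of the Zeb1-CKO libraries (orange) lie below both controls. So do the 5 genes.

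The efflux pumps did not pass the threshold. Abcb1a (ENSMUSG00000040584.8, chr5:8660077-8748575) encodes P-glycoprotein, the main pump for lipid-soluble drugs at the barrier. It was at 43.9 and 47.6 FPKM in the control pair and 35.7 and 29.4 in the Zeb1-CKO pair, with no overlap (log2 fold change of -0.48, 95% interval -0.86 to -0.11, limma's adjusted p at 0.179). Gm42686 on the other strand, at 0.210 to 0.533 FPKM, shares 553 of its 5480 exon bases. The paralog Abcb1b was between 0.434 and 0.911 FPKM. Abcg2 (ENSMUSG00000029802.13, chr6:58584523-58695676), the breast cancer resistance protein, was at 61.2 and 53.2 FPKM in the control pair and 51.2 and 49.0 in the Zeb1-CKO pair (log2 fold change of -0.19, 95% interval -0.52 to 0.15, adjusted p at 0.546). Without control replicate 1, its highest library, this was -0.09. Abcc4 (ENSMUSG00000032849.14, chr14:118482692-118706219), a pump for cyclic nucleotides and conjugated anions, was at 11.9 and 14.1 FPKM in the control pair and 13.3 and 13.0 in the Zeb1-CKO pair. It was the 1 transporter whose genotypes overlapped, with a log2 fold change of 0.02 (95% interval -0.35 to 0.38, adjusted p at 0.967), and its sign changed with the scaling. Summed over the 3 pumps, the level was 116 ± 1.45 FPKM in control and 95.8 ± 6.19 in Zeb1-CKO cells (SD, n = 2 each).

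Related genes were described from 4 further lists. Beside their counts, 2.23% of all fitted genes were called higher and 0.901% lower. At an unadjusted p under 0.05 the share was 17.9% in either direction. Of 36 other solute carriers and pumps, 35 were fitted, 1 rose and 0 fell by limma, with 7 higher and 6 lower at an unadjusted p under 0.05, and a median log2 fold change of 0.11. That median was 0.0096 with a filter at a mean of 5 FPKM, 0.041 without control replicate 1 and 0.052 without Zeb1-CKO replicate 1. The gene that rose was Slco2a1, the prostaglandin transporter, from 1.96 and 2.09 FPKM to 7.03 and 6.39 FPKM (log2 fold change of 1.348, SE 0.15, adjusted p at 0.0156). The call ended without Zeb1-CKO replicate 1 or 2, with adjusted p of 0.125 and 0.106, and without a filter on low values (0.0959). Slco2a1 belongs to the same SLCO family as the 3 carriers above.

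Of 12 genes of thyroid hormone transport and response, 7 were fitted, 0 were called, and all 7 had a log2 fold change below 0, as had 6443 of the 13651 genes fitted. Their median was -0.40, and -0.20 over the list without a filter on low values; 3 were lower and 0 higher at an unadjusted p under 0.05. Klf9, a transcription factor gene that thyroid hormone induces, was at 14.5 and 12.9 FPKM in the control pair and 7.59 and 10.4 in the Zeb1-CKO pair (limma's adjusted p at 0.193).

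Partners and regulators of transporters, including the norrin and Wnt pathway that sets barrier genes, gave 23 fitted of 28. Of these, 1 was called higher and 2 lower. At an unadjusted p under 0.05 from limma, 3 were higher and 6 lower, and the median log2 fold change was -0.16. Of the 23, 12 lay below both controls in both Zeb1-CKO libraries, 4 lay above, and 7 overlapped. Of all fitted genes, 22.3% lay below and 27.1% above in this way. Ezr, which links membrane proteins to actin, rose from 18.0 and 22.02 FPKM to 49.7 and 50.4 FPKM (a log2 difference of 1.29, limma's adjusted p at 0.0164). The Wnt target genes Nkd1 and Apcdd1 fell, with log2 fold changes of -2.06 and -0.89 and adjusted p of 0.00382 and 0.0298. The calls of Ezr and Apcdd1 ended without either Zeb1-CKO library and without a filter on low values, and that of Apcdd1 also without either control library or without the intensity trend (log2 fold changes of -0.96 to -0.81 with 1 library left out). Of 10 receptors and carriers of other uptake routes, all were fitted and 0 were called, with 1 higher and 4 lower at an unadjusted p under 0.05. Mfsd2a, the lysophospholipid carrier of barrier endothelium, was at 319 ± 28.3 FPKM in control and 325 ± 3.25 in Zeb1-CKO cells (SD, n = 2 each; adjusted p at 0.936). Cd320, the receptor for vitamin B12 bound to transcobalamin, was at 84.8 and 80.2 FPKM against 53.8 and 67.8 FPKM (adjusted p at 0.231).

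**Figure D5:**
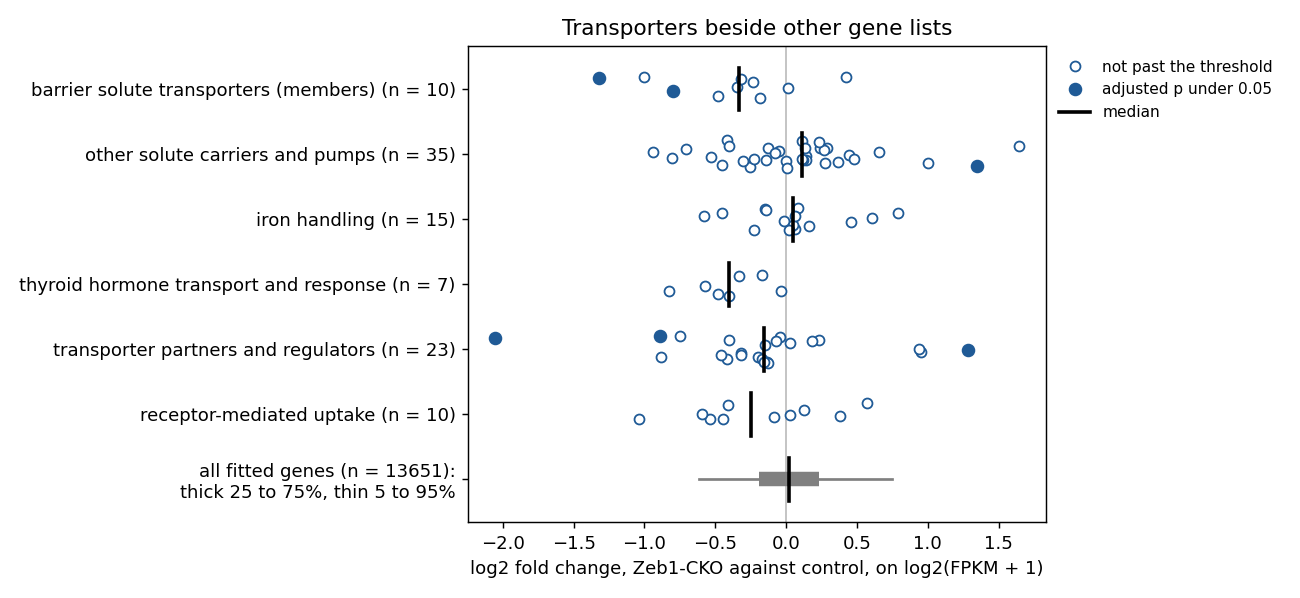
Log2 fold change of each fitted gene, Zeb1-CKO against control, by gene list, with filled points for genes past the threshold, a black line at the list median, and the spread of all fitted genes at the bottom. The 10 transporters have a median of -0.33 and the other solute carriers one of 0.11, which was 0.0096 with a filter at a mean of 5 FPKM.

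Over the 4 libraries, the genes of these lists whose pattern was most like that of Slco1c1 were Nr3c1, Crym and Bsg, of 75 compared. The measure was the root mean square difference of log2(FPKM + 1) centred on each gene's mean, which was 0.0443 for Nr3c1, 0.0819 for Crym and 0.0842 for Bsg. Nr3c1, the glucocorticoid receptor gene, was at 16.1 and 14.8 FPKM in the control pair and 8.72 and 8.86 in the Zeb1-CKO pair (limma's adjusted p at 0.0529). Crym, whose product binds thyroid hormone inside cells, was at 10.8 and 9.15 FPKM against 5.28 and 5.07 FPKM (adjusted p at 0.0536). They were chosen for this likeness, so their direction is no separate observation.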

How the data were processed

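Per the submitters' processing notes, reads were handled with Trimmomatic 0.36, HISAT2 2.1.0 and StringTie 1.3.3 on mm10; the settings and the annotation release were not given in the sources used here. Per the labels' protocols, cDNA was amplified with SMART-Seq v4 and sequenced in pairs of 150 bases. This cDNA kit does not mark strand. The authors deposited FPKM per gene; the unit was read from the values and the tools. FPKM divide by the library total, so large changes in abundant genes shift the rest, and reads carry no molecular identifiers, so depth overstates the molecules counted.

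Columns were tied to samples through their titles. Genotypes were compared with limma-trend (limma 3.58.1 under R 4.3.3), genotype being the only term, on log2(FPKM + 1) of the 13651 genes whose mean reached 1 FPKM, at a Benjamini-Hochberg adjusted p under 0.05. The fit was also run on simulated data whose spread was drawn from this same fit, which cannot show how well it suits these libraries. No count test was run. Fold changes on this scale understate those of low genes.

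The transporters and lists were chosen with earlier results of these data known. In each other list the text names called genes (up to 3 by smallest p) or, where none was called, the 2 most abundant, of which 1 gene is not reported here; cell type markers appear mostly as sums. Slc40a1, Trf, Slc2a3, Slc16a4, Slc16a9, Abcb1b, Hba-a2, Hbb-bt, pigment epithelium markers at 0 and the neighbours of Slco1c1 fall outside that rule and were named after their values were seen. Gene spans are from GENCODE M21, where 53229 identifiers had the same version and start; that of Slc22a8 had another version. Near-identical copies (at least 95% identity over 80% of a transcript) were sought with BLAST 2.17.0. Alternatives were other pseudocounts, filters, scalings, variance models and thresholds, a replicate block, and each library left out. Plots used matplotlib 3.10.9 and Python 3.11.15.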

Additional observations from a re-analysis of the deposited data

How the results depend on the processing

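Of 170 results for single transporters under other settings, 156 kept direction and side of the threshold, 9 lost a call, 2 gained one and 3 changed sign. The threshold of 0.1 reused the main fit, so its results could not change direction or lose a call. The 9 losses were Slco1c1 without a filter on low values, without the intensity trend, with a replicate block and without each library, and Slc22a8 without each Zeb1-CKO library; the 2 gains were Tfrc at a threshold of 0.1 and with crossed pairs. The number of transporters called lower was 2, and 1 without a filter, 1 without the trend and 1 with the block; leaving out 1 library gave 0 to 1. Over all genes, 304 were called higher and 123 lower. Without a filter these were 70 and 15, with a replicate block 155 and 38, at a threshold of 0.1 553 and 306, and with 1 library left out 48 to 238 and 15 to 64. With a filter at a mean of 5 FPKM, 169 were higher. Leaving out a library leaves fewer samples; the cause of the other shifts was not tested.

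The log2 fold change of Abcc4 was -0.0341 with upper-quartile scaling, -0.0312 with quantile normalization and -0.102 to 0.132 with 1 library left out (lowest without control replicate 1). That of Ftl1 was 0.0142 scaled to equal sums, 0.169 with quantile normalization and -0.186 to 0.151 with 1 library left out (above 0 without control replicate 1 or Zeb1-CKO replicate 1). That of Mfsd2a was -0.0252 with upper-quartile scaling and -0.0626 to 0.118 with 1 library left out (lowest without control replicate 1). The cause was not tested.

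Nothing in the labels says that replicate numbers pair the libraries. Same-numbered libraries deviated from their group means with r = -0.118 over genes, and crossed pairs, added after seeing this, gave 306 genes higher and 149 lower, with 3 transporters lower. Apcdd1 lost its call with the replicate block (adjusted p = 0.0969), while Slco2a1, Ezr and Nkd1 stayed past the threshold. No scaling moved the median of all genes by over 0.1. With 2 libraries per genotype, intervals are wide.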
